A study of Mus musculus with 6 samples.

Results

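Pyramidal neurons of hippocampal field CA1 were followed through 6 marker genes, Wfs1, Mpped1, Fibcd1, Pou3f1, Man1a and Spink8, in the hippocampus of mice with and without the cation channel gene Trpc4. The 3 Trpc4 knockout and 3 wild-type samples were all of the C57BL/6J background, male and at postnatal day 56 (P56), with 1 Affymetrix array each. Signals are log2 values made by the authors with RMA (robust multi-array average), so that 1 unit is a doubling and every difference is knockout minus wild type. Which exons of Trpc4 were removed, whether each replicate is its own animal and which end of the hippocampus was taken are not stated in the labels. P-values therefore measure sample-to-sample spread only, part of which can be technical.

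The members were chosen by name from CA1 markers, with earlier knockout values of some of them known. A probe set stood for a member when the platform annotation gave it that gene and no other, and among several it was to be selected on the highest mean signal over the 6 arrays. Each of the 6 members had 1 such probe set, so that all 6 were measured, of 22180 genes in all. The levels are given as a description. In every sample each member exceeded 4.74, the median signal of the whole table. Signals of different probe sets also depend on the probes, so the members' levels are not set against each other.

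CA1 is the output field of the hippocampal circuit. Its pyramidal cells receive the Schaffer collaterals of CA3 and project to the subiculum and the cortex. In mouse hippocampus RNA of these 6 genes is known to be concentrated in CA1 compared with CA3 and the dentate gyrus, although all 6 are also expressed elsewhere in the brain or body. Their products have little in common. Wfs1 encodes wolframin, a membrane protein of the endoplasmic reticulum whose loss causes Wolfram syndrome in people. Man1a encodes a Golgi mannosidase that trims N-linked glycans, Mpped1 a protein with a metallophosphoesterase domain, Fibcd1 a membrane receptor with a fibrinogen-like domain, Spink8 a member of the Kazal family of serine peptidase inhibitors, and Pou3f1 a POU domain transcription factor. In whole tissue, fewer cells of a type and less RNA per cell cannot be told apart.

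Trpc4 had signals of 7.39, 7.55 and 7.31 in knockout replicates 1 to 3, against 8.06, 8.23 and 8.06 in wild-type replicates 1 to 3, lower in every sample labelled knockout. Whether its probe set lies in the deleted stretch is not known here. The difference was -0.70 ± 0.09 (standard error), with a limma adjusted p of 0.738 over all genes. Array medians lay between 4.73 and 4.75, and Pearson's r between arrays over probe sets, which are not independent replicates, ran from 0.985 to 0.988. Genes shared by pyramidal cells, such as Camk2a and Slc17a7, averaged 9.80 to 9.86 in the knockout samples and 9.70 to 9.83 in the wild-type samples. Markers of thalamus, striatum and upper cortex, tissues that can be carried along in a dissection, averaged 6.28 to 6.36 in knockout and 6.27 to 6.40 in wild type. That average joins several tissues, with 2 genes higher and 5 lower in knockout, so a shift in any one tissue can be offset in it.

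Of the 6 CA1 markers, 4 had higher means in knockout hippocampus and 2 had lower means, where 54.9% of all genes tested had a higher and 45.1% a lower mean. The knockout values of Wfs1 all lay below the wild-type values, while those of Mpped1 and Fibcd1 all lay above them. Spink8 had the largest difference of the 6 but overlapping groups, and Man1a and Pou3f1 lay close to 0. No member passed the adjusted threshold of 0.05 in limma (0 of 6, adjusted p 0.849 to 0.989), and neither did any of the 22180 genes tested (0%). At an unadjusted limma p under 0.05 there were 3 members, Wfs1, Mpped1 and Spink8, beside 1276 genes or 5.75% of all genes tested. Of the 3, Mpped1 and Spink8 were higher (3.16% of all genes) and Wfs1 was lower (2.59%). Since the members were chosen with earlier results for Wfs1 and Mpped1 known, that count is a description only. The median difference of the members was 0.11, beside 0.01 over all genes.

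**Figure D1:**
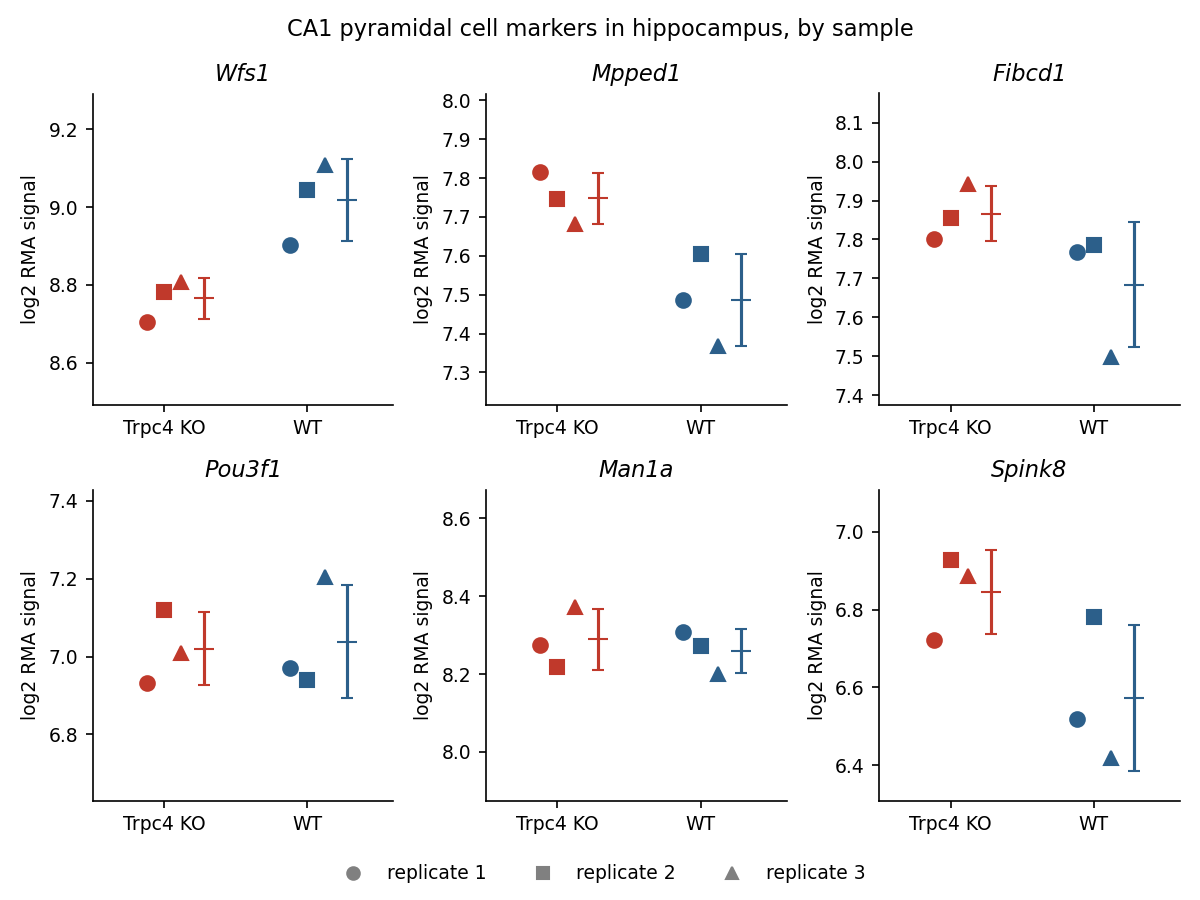
Log2 RMA signal (vertical axes, each spanning the same number of log2 units) of the 6 CA1 markers in each Trpc4 knockout (KO, red) and wild-type (WT, blue) sample; symbols mark the replicate, and bars show the mean ± SD of the 3 samples. The Wfs1 points are all lower in KO, those of Mpped1 and Fibcd1 all higher, and wild-type replicate 3 is the highest or lowest of the 6 samples in every panel.

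Wfs1 is the member best known as a label of CA1, where its RNA is strongest toward the dorsal end. Its signal was 8.71, 8.78 and 8.81 in knockout replicates 1 to 3, against 8.90, 9.04 and 9.11 in wild-type replicates 1 to 3. The groups did not overlap, with a gap of 0.10 between the highest knockout and the lowest wild-type sample, and the wild-type samples were spread over 0.21, wider than the 0.10 of the knockout samples. Means were 8.77 ± 0.05 in knockout and 9.02 ± 0.11 in wild type (SD, n = 3 each). The difference was -0.25 ± 0.08 (standard error) with a 95% interval of -0.45 to -0.06, which puts the knockout signal at 83.9% of the wild-type signal. In limma the unadjusted p was 0.0168 and the adjusted p 0.849, and an exact permutation test (two-sided) gave 0.1, which is the lowest value possible with 3 samples a group. Of all genes tested, 7.08% had a difference at least as large in either direction.

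Mpped1 differed in the other direction by about the same amount. It had 7.81, 7.75 and 7.68 in knockout replicates 1 to 3, against 7.49, 7.60 and 7.37 in wild-type replicates 1 to 3. Here too the groups did not overlap, and the gap was 0.08. Averages were 7.75 ± 0.07 in knockout and 7.49 ± 0.12 in wild type (SD, n = 3 each), a difference of 0.26 ± 0.09 (standard error, 95% interval 0.06 to 0.47). That is 119.8% of the wild-type signal, with p = 0.0188 before and 0.849 after adjustment in limma, and p = 0.1 in the exact permutation test. Over all genes tested, groups were apart for 10.9%, with knockout higher in 6.41% and lower in 4.45%, beside 3 of these 6 members.

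As a description of the pair, chosen after its values were seen, their log2 signals were subtracted within each array. Mpped1 minus Wfs1 was -0.89, -1.04 and -1.12 in knockout replicates 1 to 3, against -1.42, -1.44 and -1.74 in wild-type replicates 1 to 3. Since each gene's groups were already apart in opposite directions, the separation of these differences follows from that and adds no evidence.

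Since Wfs1 and Mpped1 had groups that lay apart in opposite directions, the DNA before their annotated starts is printed here from RefSeq (build GRCm38.p6), as the 250 bases upstream of each start, 5′ to 3′ on the gene's strand. Capitals mark matches to the GC box GGGCGG and the CCAAT box CCAAT, both strands searched. The Wfs1 window lies at chr5:36988983-36989232 on the minus strand, and those of Mpped1 at chr15:83779773-83780022 and chr15:83784579-83784828 on the plus strand.
Wfs1: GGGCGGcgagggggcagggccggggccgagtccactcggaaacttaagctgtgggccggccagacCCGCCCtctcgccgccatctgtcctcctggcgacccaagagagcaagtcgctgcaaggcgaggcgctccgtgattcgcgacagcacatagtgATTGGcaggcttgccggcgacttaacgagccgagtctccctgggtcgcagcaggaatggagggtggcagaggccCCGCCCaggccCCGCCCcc
Mpped1, start 1: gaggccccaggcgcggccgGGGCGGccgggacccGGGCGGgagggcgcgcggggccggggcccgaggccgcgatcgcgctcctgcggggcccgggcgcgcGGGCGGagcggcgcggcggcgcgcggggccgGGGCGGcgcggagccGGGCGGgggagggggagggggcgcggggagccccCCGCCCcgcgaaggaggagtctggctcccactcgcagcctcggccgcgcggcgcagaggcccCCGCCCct
Mpped1, start 2: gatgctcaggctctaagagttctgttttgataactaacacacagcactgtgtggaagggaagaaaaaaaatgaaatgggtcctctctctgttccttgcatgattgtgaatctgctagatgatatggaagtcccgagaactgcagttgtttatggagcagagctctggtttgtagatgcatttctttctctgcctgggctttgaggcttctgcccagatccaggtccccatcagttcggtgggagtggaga

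The Wfs1 window held 4 GC boxes and 1 CCAAT box, whose first base lies 93 bases before the start, and 23 CpG dinucleotides. The first Mpped1 window was richer still in G and C (88.8%, against 69.6% for Wfs1), with 7 GC boxes, 47 CpG and no CCAAT box. The second Mpped1 window had neither motif, 2 CpG and a G and C content of 46.8%. For comparison, 32.7% of all 32851 promoter windows in the table held a GC box and 33.8% a CCAAT box, and the median window had 6 CpG. Windows were found for 4 of the 6 members, Fibcd1 and Man1a being the others. The Man1a window held 2 GC boxes and 1 CCAAT box, and the Fibcd1 window 1 GC box and no CCAAT box. A link between these motifs and the differences was not tested. None of the 5 windows of these 4 members held the octamer ATGCAAAT on either strand, which 1.6% of all windows held. It is the motif bound by POU factors such as the product of Pou3f1. Which of the Mpped1 starts is used in these samples was not measured, since the table gives 1 probe set for the gene.

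Man1a, whose mannosidase acts on glycoproteins passing through the Golgi, had a difference near 0. It had 8.27, 8.22 and 8.37 in knockout replicates 1 to 3, against 8.31, 8.27 and 8.20 in wild-type replicates 1 to 3. The groups overlapped throughout, and Man1a had the narrowest range over the 6 samples of all members, 0.17. Its difference was 0.03 ± 0.08 (standard error), and the 95% interval of -0.15 to 0.21 allows a change of either sign (limma adjusted p 0.974, exact two-sided permutation p 0.6). Genes of N-glycan trimming and branching, of which Man1a is 1, were spread around 0 as well. Of 10 measured, 4 had higher and 6 lower means in knockout, with a median of -0.03, a range of -0.18 to 0.08 and 0 past the adjusted threshold. At the low end was Mogs, the glucosidase that acts first on the glycan, at -0.18 ± 0.10 (standard error).

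Fibcd1 and Spink8 encode proteins of the cell surface or the secretory route, and both had higher means in knockout. Fibcd1 read 7.80, 7.85 and 7.94 in knockout replicates 1 to 3, against 7.77, 7.79 and 7.50 in wild-type replicates 1 to 3. Its groups did not overlap, but by a gap of only 0.02, and wild-type replicate 3, at 7.50, lay below the other samples. The difference was 0.18 ± 0.10 (standard error), with a 95% interval of -0.05 to 0.41 and limma p-values of 0.107 (unadjusted) and 0.876 (adjusted).

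Spink8 had 6.72, 6.93 and 6.89 in knockout replicates 1 to 3, against 6.52, 6.78 and 6.42 in wild-type replicates 1 to 3. Knockout replicate 1 lay below wild-type replicate 2, so the groups overlapped. Means were 6.84 ± 0.11 in knockout and 6.57 ± 0.19 in wild type (SD, n = 3 each), the widest wild-type spread of the members. Its difference of 0.27 ± 0.11 (standard error) had a 95% interval of 0.01 to 0.53, and its limma p was 0.0437 before adjustment and 0.853 after it. The exact two-sided permutation p was 0.2.

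Pou3f1, the transcription factor of the group, had 6.93, 7.12 and 7.01 in knockout replicates 1 to 3, against 6.97, 6.94 and 7.20 in wild-type replicates 1 to 3. The groups overlapped, with the highest and the lowest value in wild-type replicate 3 and knockout replicate 1. The difference was -0.02 ± 0.10 (standard error), with a 95% interval of -0.25 to 0.21 and a limma adjusted p of 0.989. Its relatives Pou3f2, Pou3f3 and Pou3f4 differed by -0.04, 0.02 and -0.14. Other relatives and functional neighbours of the members differed by -0.06 to 0.12. Mpped2, the nearest relative of Mpped1, differed by -0.04, with an interval of -0.20 to 0.12. Man1a2, Man1c1 and Man1b1, which encode further mannosidases of the same family, differed by -0.06, 0.02 and 0.08. Cisd2, mutated in a second form of Wolfram syndrome in people, differed by 0.12, with an interval of -0.08 to 0.32. Of these 8 relatives, 4 had higher and 4 lower means, and 0 passed the adjusted threshold, beside 0% of all genes. With an unadjusted limma p under 0.05 there were 0, beside 5.75% of all genes, a small share for so few genes.

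Other genes enriched in CA1, or in a part of it, were compared with the 6 members. Of 9 measured genes, 7 had higher and 2 lower means in knockout, with a median of 0.04. Among them 0 passed the adjusted threshold, beside 0% of all genes. At an unadjusted limma p under 0.05 there were 0, beside 5.75% of all genes. All 9 had overlapping groups, where 10.9% of all genes had groups apart. In so few genes, counts of 0 lie near these shares and set no contrast with the 6 members. Dcn, whose proteoglycan decorin is made in ventral CA1 and by fibroblasts, had 7.88, 8.28 and 8.19 in knockout replicates 1 to 3, against 7.84, 8.25 and 7.69 in wild-type replicates 1 to 3, a difference of 0.19 ± 0.16 (standard error). Grp, the gene of gastrin-releasing peptide, differed by 0.18 ± 0.13 and Crym, which encodes a thyroid hormone binding protein, by 0.10 ± 0.09. Ccn3, a secreted matrix protein gene strong in ventral CA1, differed by 0.03, with an interval of -0.24 to 0.31. Calb1, the calbindin gene found in superficial CA1 cells and dentate granule cells, differed by -0.01, and Ndst4, Etv1 and Gpr161 by 0.04, 0.04 and 0.08. Lefty1 had the lowest value, -0.19 ± 0.20.

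**Figure D2:**
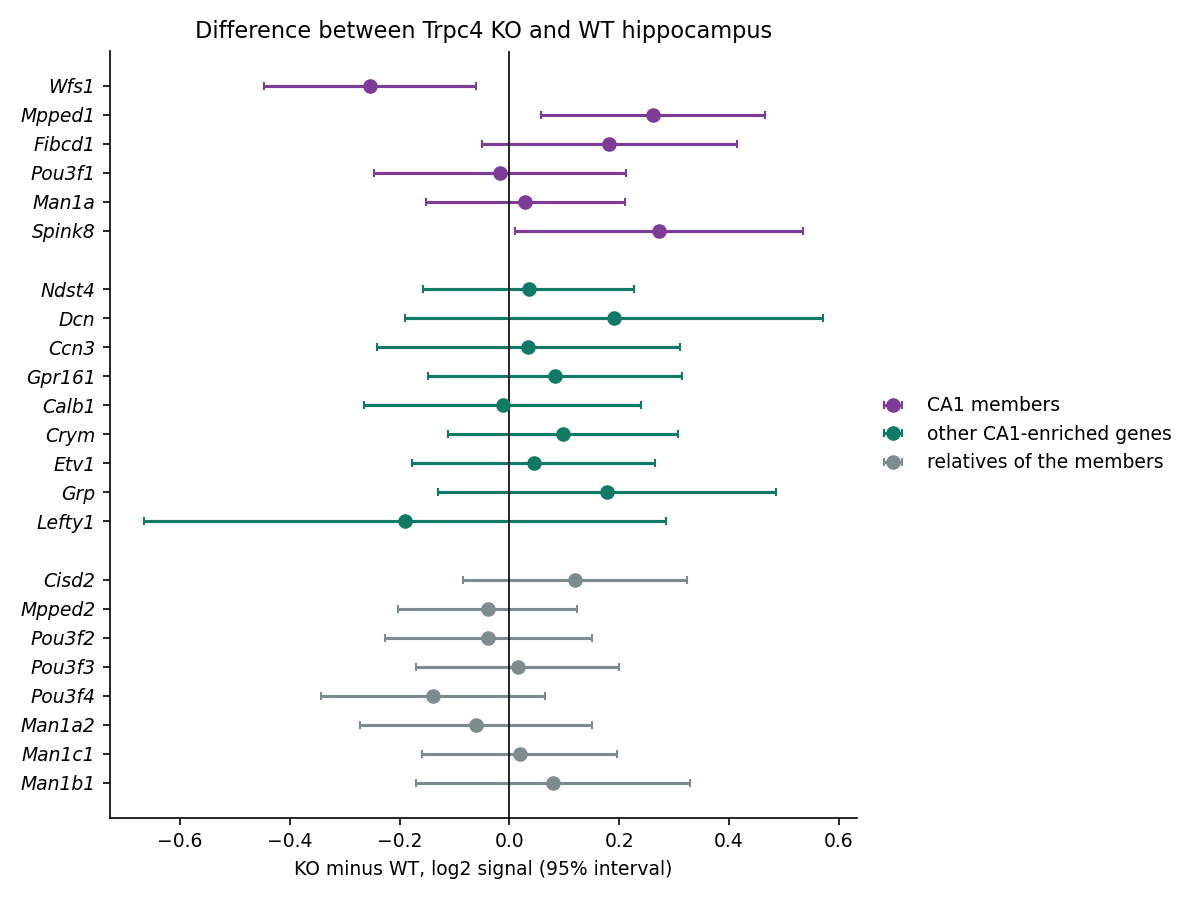
Difference in log2 signal between Trpc4 knockout and wild-type hippocampus (horizontal axis, knockout minus wild type, points) with the 95% interval of the limma fit (bars) for the 6 CA1 markers, 9 other CA1-enriched genes and 8 relatives of the members. The intervals of Wfs1, Mpped1 and Spink8 leave out 0 before any adjustment, and those of all other genes shown cross it.

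The 6 members did not move as a block across samples. Wild-type replicate 3 held the highest or the lowest value of all 6 members. It was highest for Wfs1 and Pou3f1 and lowest for Mpped1, Fibcd1, Man1a and Spink8. Over all genes tested, this sample was the highest or lowest of the 6 for 36.1%, and the other samples for 30.2% to 35.0%. In each knockout sample 4 members lay above their mean over the 6 arrays and 2 below it, whereas in wild-type replicates 1 to 3 the members above their mean numbered 2, 3 and 2.

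Leaving out wild-type replicate 3 brought the differences of 5 members closer to 0 and left 0 members at an unadjusted limma p under 0.05. Without it Wfs1 differed by -0.21 (unadjusted limma p 0.0593), Mpped1 by 0.20 (0.0662) and Spink8 by 0.19 (0.142). Fibcd1 differed by 0.09 without it, against 0.18 over all samples. Man1a was at -0.0011 without this sample, and Pou3f1 at 0.07. Leaving out wild-type replicate 1 gave the lowest value of Wfs1, -0.31, and leaving out wild-type replicate 2 the highest values of Mpped1 (0.32), Fibcd1 (0.23) and Spink8 (0.38). Leaving out knockout replicate 1 also took Wfs1 (unadjusted limma p 0.0542) and Mpped1 (0.0607) above 0.05. Spink8 rose above 0.05 as well without knockout replicate 2 (0.121), knockout replicate 3 (0.105) or wild-type replicate 1 (0.112). The shares of all genes under 0.05 in these fits were not counted. The signs of Wfs1, Mpped1, Fibcd1 and Spink8 were the same without each of the 6 samples in turn. For Wfs1, Mpped1 and Fibcd1 it could not be otherwise, since their groups did not overlap.

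**Figure D3:**
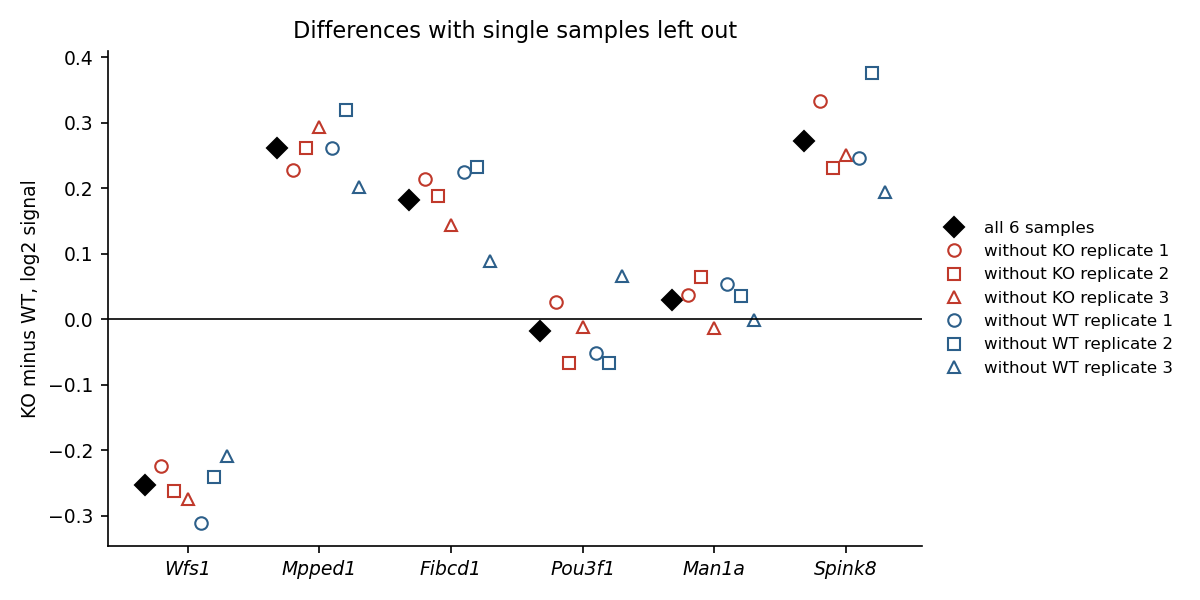
Difference in log2 signal, knockout minus wild type (vertical axis), of each CA1 marker over all 6 samples (black diamonds) and with 1 sample left out (open symbols, red for a knockout and blue for a wild-type sample). Wfs1 stays below 0 between -0.31 and -0.21, Mpped1, Fibcd1 and Spink8 stay above it, and Pou3f1 and Man1a lie on both sides. Where groups do not overlap, as for Wfs1, Mpped1 and Fibcd1, leaving out 1 sample cannot change the sign.

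Each member's values were also set against those of 11832 other named genes with a mean above the median of all probe sets, by Pearson's r over the 6 arrays. With so few arrays many genes reach a high r, and likeness is given only as a description. The sodium channel subunit gene Scn4b and the gene Gmfb were most like Wfs1 (both r = 0.997), and 21 genes had an r over 0.95. Scn4b had 4.73, 4.78 and 4.83 in knockout replicates 1 to 3, against 4.94, 5.08 and 5.15 in wild-type replicates 1 to 3, a difference of -0.27. The amino acid transporter gene Slc1a4 and Mfap3l came closest to Mpped1 (r = 0.996 and 0.994), among 55 genes over 0.95. Osbpl2 and Cyb5a were nearest to Fibcd1 (both 0.99, 41 genes over 0.95), and Trmt2a and Fsd1 to Spink8 (both 0.99, 31 genes). Those nearest to Pou3f1 were the kinase gene Jak2 (0.99) and the calcium channel subunit gene Cacnb4 (0.98), among 11 genes. Those nearest to Man1a were Aif1l and Lamb1 (both 0.98), among 14. None of these 12 genes was a member or stood on the list of other CA1-enriched genes. With 12 genes taken from 11832 and lists this short, that was likely beforehand, so nothing about the CA1 genes follows from it.

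Genes of the other hippocampal fields were taken from lists written from general knowledge, with earlier results of these data known. Of 6 CA2 markers, 4 had higher and 2 lower means in knockout, from -0.21 for Cacng5 and -0.17 for Pcp4 to 0.30 for Map3k15, with a median of 0.06. Map3k15 and the signalling regulator gene Rgs14 (0.23) had all knockout values above all wild-type values, as 6.41% of all genes did. Map3k15 was dim, below the median of the whole table, 4.74, in every sample (mean 4.30). Of 7 CA3 markers, 5 had higher means with a median of 0.04, and Cpne4 differed by 0.19 and Iyd by -0.36. Dentate granule cell markers had higher means for 7 of 8 genes with a median of 0.11, led by Plk5 (0.30) and C1ql2 (0.28). Subiculum markers had higher means for 4 of 5 genes with a median of 0.12 and a range of -0.27 to 0.42, where Cntn6 differed by 0.42 and Tle4 by 0.15. Genes shared by pyramidal cells had higher means for 7 of 8 with a median of 0.07, among them Slc17a7, which encodes a vesicular glutamate transporter, at 0.15 and Neurod2 at 0.13. Such groups apart, knockout higher, were not particular to CA2. They were also found for 1 CA3, 1 dentate, 2 subiculum and 2 shared pyramidal cell genes. Knockout was lower in every sample for 1 CA3 gene, as for 4.45% of all genes. None of the genes in these lists passed the adjusted threshold (0%, as over all genes), and the share of all genes with a higher mean in knockout was 54.9%.

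Markers of glia, vessels and interneurons, which the tissue also holds, were set beside the members. All 9 measured myelin and oligodendrocyte markers had lower means in knockout, with a median of -0.46 and a range of -0.68 to -0.25, and 8 of the 9 had all knockout values below all wild-type values, as 4.45% of all genes tested did. At an unadjusted limma p under 0.05 and lower in knockout they numbered 9, beside 2.59% of all genes, with Tspan2 at -0.62 and Aspa at -0.68, and at the adjusted threshold 0. The list was chosen with earlier results of these data known, and its genes share the same arrays, so these counts are a description only. As a mean deviation from each gene's own average, the myelin markers were at -0.23, -0.52 and 0.05 in knockout replicates 1 to 3, against 0.29, 0.13 and 0.27 in wild-type replicates 1 to 3. The same measure for the 6 CA1 members was -0.01, 0.06 and 0.07 in knockout, against -0.06, 0.02 and -0.08 in wild type. In that mean the lower Wfs1 partly offsets the higher Mpped1, Fibcd1 and Spink8, while all 9 myelin markers were lower. Knockout replicate 2, lowest for myelin, was the highest or lowest sample for 1 of the 6 members, Spink8 (highest), beside 33.9% of all genes. Without this sample Wfs1 differed by -0.26, Mpped1 by 0.26, Fibcd1 by 0.19, Spink8 by 0.23, Man1a by 0.06 and Pou3f1 by -0.07. The defining myelin genes Mbp and Mog had signals of 7.255 or more in all samples, and the part of myelin RNA in the members' values was not tested.

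Interneuron markers had lower means for all 7 genes with a median of -0.10, with Sst at -0.19 and Pvalb at -0.19. Astrocyte markers (4 of 7 higher, median 0.01), microglia markers (2 of 6 higher, median -0.03) and endothelial markers (1 of 5 higher, median -0.06) were split between both directions. The 3 measured choroid plexus markers had lower means, with Ttr at -0.43. Of the genes in these lists 0 passed the adjusted threshold.

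**Figure D4:**
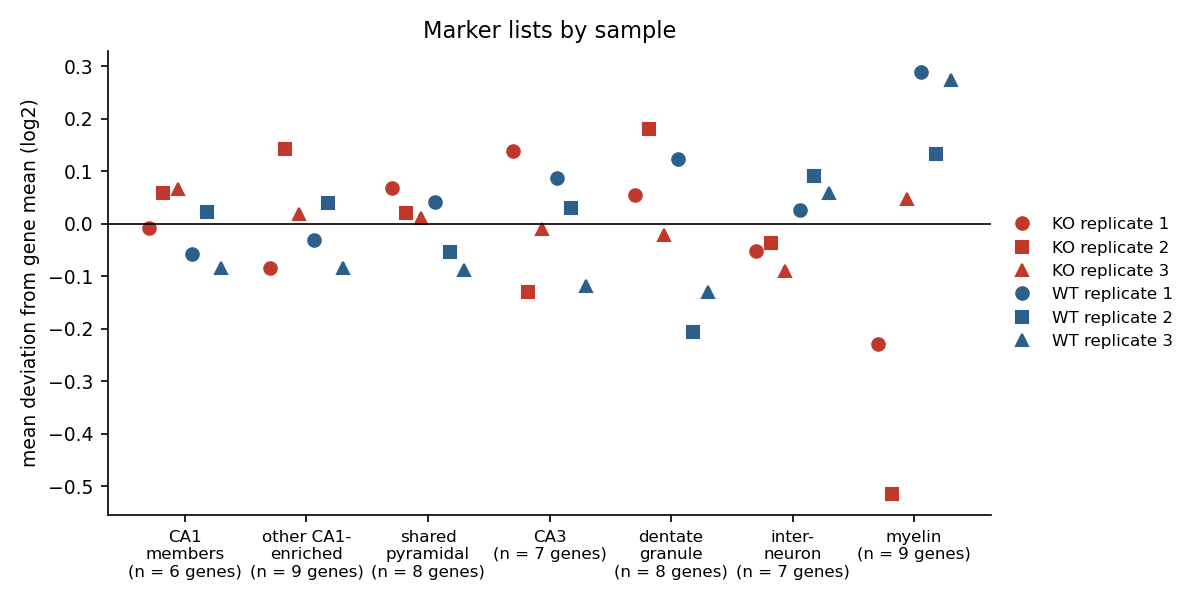
Mean deviation of each marker list from its genes' averages over the 6 arrays (vertical axis, log2 units) in every knockout (red) and wild-type (blue) sample, with the number of measured genes under each list. The CA1 markers lie between -0.08 and 0.07 with the groups overlapping, while the myelin genes reach from -0.52 in knockout replicate 2 to 0.29 in wild-type replicate 1. The CA1 mean joins members that differ in opposite directions and partly offset each other.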

How the data were processed

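Total RNA of hippocampus was, per the labels' protocols, extracted with Trizol and carried biotin from a GeneChip kit. The authors deposited log2 values of 41345 probe sets, with RMA and Affymetrix Power Tools named in the submitters' processing notes. Their versions and the genome build: not given in the sources used here. RMA equalises the arrays, which hides any shift common to most genes. Raw scans were not used, and the number of arrays limits the precision (median standard error of a difference 0.0997).

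A platform annotation, which can be old, named the probe sets: 23521 named 1 gene, 1814 several and 16010 none in it. The first kind was used, 1 probe set per gene by the highest mean, and 0 symbols changed in RefSeq. Genotypes were compared by limma 3.58.1 in R 4.3.3 with Benjamini-Hochberg adjustment over 22180 genes, beside exact permutation tests. On simulated data with these genes, 17 of 50 genes changed by 0.5 and 42 of 50 changed by 1 (log2) were called, and 7 of 21980 unchanged ones, in data that held 200 changed genes in all. Many true changes ease the adjusted threshold, so these shares overstate what could be called here. Figures were drawn with matplotlib 3.10.9.

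The members and lists (16 lists, 112 symbols, 107 genes measured) were chosen with earlier results of these data known. The rule for named genes takes Trpc4, the members, the other CA1-enriched genes, the relatives, at most 2 genes per other list by the smallest unadjusted p, and the 2 genes most like each member, without predicted, clone or small RNA names. Camk2a, Mbp, Mog, Cacng5 and Pcp4, and in the closing section Rps13, were named outside it, after their values were seen. Same-numbered samples of the 2 genotypes did not deviate together (r of their deviations 0.07, 0.03 and -0.0038), so the numbers were not used as a block. Results were recomputed without each sample, with a replicate block, with array weights, after median centring or quantile normalization, with trend and robust variance, without dim genes, from the mean of all probe sets and at an unadjusted threshold.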

Additional observations from a re-analysis of the deposited data

How the results depend on the processing

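The count of 0 members past the adjusted threshold was the same under all 13 alternative fits, where the lowest adjusted p of a member was 0.682, and was 3 with an unadjusted p under 0.05. With a replicate block, trend and robust variance, without dim genes or from the mean of all probe sets, each member's difference cannot change. Nor can its sign change on leaving out 1 sample where its groups do not overlap. Including those fixed values, 74 of 78 member values under the 13 fits kept their sign. The 4 that did not came from leaving out 1 sample, for Pou3f1 (0.0265 without knockout replicate 1 and 0.0654 without wild-type replicate 3) and Man1a (-0.0128 without knockout replicate 3 and -0.0011 without wild-type replicate 3). Over single samples left out, Pou3f1 ranged from -0.0675 to 0.0654 and Man1a from -0.0128 to 0.0644. The cause was not tested. The replicate numbers did not pair the samples. With a replicate block 0 genes passed, and Wfs1 and Mpped1 differed by -0.25 and 0.26, as they must in a balanced block. Over all genes the count of 0 became 1276 at an unadjusted p under 0.05 and 1 with trend and robust variance (Trpc4, limma adjusted p 0.0378). It was 0 to 1 without single samples, the 1 being Rps13 without knockout replicate 1, and 0 under the other alternatives. With quantile normalization 2 members had an unadjusted limma p under 0.05, and with trend and robust variance 4. The share of all genes under 0.05 in these fits was not counted, so the member counts are a description only. Without raw scans, signal could not be set against background. With 3 samples a group, the interval of Pou3f1 ran from -0.25 to 0.21, so differences inside it could not be resolved.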
